A study of Mus musculus with 24 samples.

Results

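The 10 genes described here code for kinases and mediators of the DNA damage checkpoint: *Atm*, *Atr*, *Chek1* and *Chek2*, which are protein kinases, *Atrip*, the partner of ATR, *Rad17* and *Hus1*, which load and form a clamp at damaged DNA, and the mediators *Mdc1*, *Topbp1* and *Clspn*. They were chosen by name, with earlier results of these data known, as the members of this pathway that share the work of sensing damage and passing the signal on. Each symbol matched 1 of the 49315 genes counted. Their mRNA was measured in primary murine cortical astrocytes by RNA sequencing in 6 groups of 4 libraries, which combine X-ray doses of 0, 0.1 and 2 Gy with harvest at 6 h or 24 h. The cells came from the cortex of late C57BL/6J wild-type embryos, where the embryos of a pregnant mouse were pooled, and none of the groups carried a genetic change. Irradiation took place on day 3 of culture in the dishes, and cells at 0 Gy were mock-irradiated. The libraries of a group carry the numbers 1 to 4, and libraries of the same number deviated together from their group means within a time, so that comparisons between doses could be made within pairs.

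The checkpoint halts or slows the cell cycle while DNA is repaired. ATM is activated at DNA double strand breaks, where MDC1 binds phosphorylated histone H2AX and holds ATM at the site, and its main downstream kinase is CHK2. ATR, bound through ATRIP to single-stranded DNA covered by the protein RPA, responds to stalled replication forks and resected breaks. RAD17 loads the ring of RAD9, HUS1 and RAD1, TOPBP1 at this ring activates ATR, and claspin, the product of *Clspn*, brings CHK1 to ATR. The activity of these proteins is mainly set by phosphorylation, which counts of mRNA do not measure. Claspin and CHK1 also act in every S phase, and their mRNAs are typically abundant in dividing cells, whose replication genes are switched on by E2F factors.

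The promoters of the 10 genes were searched for letters of the E2F site, since E2F factors act on many replication genes. The letters searched were TTCCCGC, the variant TTCGCGC, the variant TTGCCGC and the variant TTGGCGC, on both strands, over 250 bases before and 50 bases after the start given by RefSeq for GRCm38.p6. At least 1 of them stood in the promoters of 6 of the 10 genes and in 9.57% of 32851 promoters of the same length. No match was found in this window for *Atr*, *Atrip*, *Rad17* or *Hus1*. The windows below, read along the strand of the gene with the match in capitals, are those of the genes with a match.
Clspn: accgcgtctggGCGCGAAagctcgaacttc
Chek1: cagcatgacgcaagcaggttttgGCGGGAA
Topbp1: cgtccgctcggTTGGCGCgaaagtcggttc
Mdc1: cttcagcctgtTTCCCGCcggtagccgcac
Atm: tagagccggaaGCGGGAAggcgtgcgtaca
Chek2: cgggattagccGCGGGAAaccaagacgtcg

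The window of *Clspn* lies at chr4:126556990-126557019, and its match begins at base 22 counted from the transcription start. In *Chek1* (chr9:36726609-36726638) the match begins at base 44, and in *Atm* (chr9:53536638-53536667) at base 16, so that these 3 matches lie in the transcribed part. *Topbp1* (chr9:103305184-103305213) held 2 matches, which overlap and begin at bases -132 and -129, and *Mdc1* held 2 matches at bases -129 and -15, of which the second is shown (chr17:35841472-35841501). The match of *Chek2* (chr5:110839820-110839849) begins at base -152. The CHR letters TTTGAA, an element of genes of late cell cycle phases, stood only in the promoter of *Hus1* among the 10 and in 17.9% of all promoters, and CCAAT stood in 5 of the 10 and in 37.4%. A match of letters is a description of the sequence and not evidence of a bound factor.

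The genes counted at GRCm38 coordinates are spread over 6 chromosomes, with 5 of the 10 on chromosome 9: *Chek1* (chr9:36708482-36727065), *Atm* (chr9:53439149-53536740), *Atr* (chr9:95857597-95951781), *Topbp1* (chr9:103305215-103350428) and *Atrip* (chr9:109059747-109074124). The others are *Clspn* (chr4:126556935-126593903), *Chek2* (chr5:110839979-110874145), *Hus1* (chr11:8993137-9011191), *Rad17* (chr13:100617165-100651059) and *Mdc1* (chr17:35841515-35859670). The transcripts of *Atr* stand at an extreme of the transcriptome, with a GC content of 37.3%, lower than in all but 0.787% of the genes tested, and a counted length of 23629 bases. *Atm* (42.7% GC), *Rad17* (41.1%) and *Chek1* (43.5%) are also poor in GC, whereas *Mdc1* (52.5%) and *Atrip* (52.7%) are not. Of the counted length of *Atrip*, 49.9% is shared with a readthrough gene on the same strand (ENSMUSG00000105383), so its counts are uncertain. Small parts of *Atr* (3.07% and 1.96%) and *Rad17* (2.85%) are shared with genes on the opposite strand, and whether the counting used strand is not given in the sources used here.

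Total counts per library were between 14742855 and 38194800. Of the 11 astrocyte markers all were detected in every library (*Gfap* 343.3 to 797.1 CPM, which is counts scaled to a library of a fixed size), with summed levels from 2459 to 3520 CPM. Markers of other cells were present as well, since the 10 microglial markers summed to between 1254 and 2005 CPM in the 18 libraries numbered 1, 3 and 4, but only to between 194.4 and 229.3 CPM in the 6 libraries numbered 2, at every dose and time. The 8 neuronal markers summed to 399.7 to 726.5 CPM, nearly all of it from *Map2* (104.9 to 424.2 CPM), *Stmn2* (180.9 to 321.8) and *Tubb3* (35.14 to 122.9), while *Rbfox3* reached at most 0.887 CPM. The 8 markers of the oligodendrocyte lineage summed to 288.2 to 815.2 CPM. The 10 markers of fibroblasts and vessels summed to 3527 to 7842 CPM, with *Acta2* at 2927 to 7365 CPM, *Col1a1* at 117.7 to 878.8, *Col1a2* at 99.4 to 484.7 and *Pdgfrb* at 45.5 to 78.42, whereas *Lum* (at most 0.386) and *Cldn5* (at most 0.0698) were at or near 0. The libraries also differed in how genes of low and high GC content were counted. With the genes divided by GC content into 5 equal parts, the median deviation of the lowest part minus that of the highest part lay between -0.425 and 0.317 (log2) at 6 h, but ran from -0.848 (2 Gy, number 3) to 0.792 (0 Gy, number 2) at 24 h. The libraries numbered 3 were the lowest of each dose at 24 h, between -0.848 and -0.432.

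All 10 genes were expressed, and all 10 passed the filter on low counts in every comparison. Levels of different genes were set side by side as CPM per kilobase of counted length. This length covers all annotated exons of a gene, so the order of genes depends on the annotation as well as on the mRNA. On this scale *Rad17* had the highest level in mock-irradiated cells, with 9.32 ± 0.775 (SD, n = 4) at 6 h and 10.2 ± 1.97 at 24 h, without overlap with the next gene. *Topbp1*, *Mdc1*, *Hus1* and *Chek2* followed with means of 3.52 to 4.90 CPM per kilobase at 6 h, and neighbours in this order overlapped. *Clspn* had 2.75 ± 0.417 CPM per kilobase at 6 h. The 3 kinases *Chek1* (1.27 ± 0.227), *Atm* (1.26 ± 0.422) and *Atr* (0.847 ± 0.307) overlapped each other at the lower end. *Atrip* was lowest with 0.336 ± 0.0677 CPM per kilobase and only 30 to 56 counts per library. The order at 24 h was the same in mock-irradiated cells except that *Atm* and *Chek1*, which overlapped, changed places, whereas after 2 Gy at 24 h the means of *Topbp1* (now below *Hus1* and *Mdc1*), *Clspn* (below *Atm*) and *Chek1* (below *Atr*) stood below those of genes they had exceeded, although neighbours overlapped in each case.

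**Figure D1:**
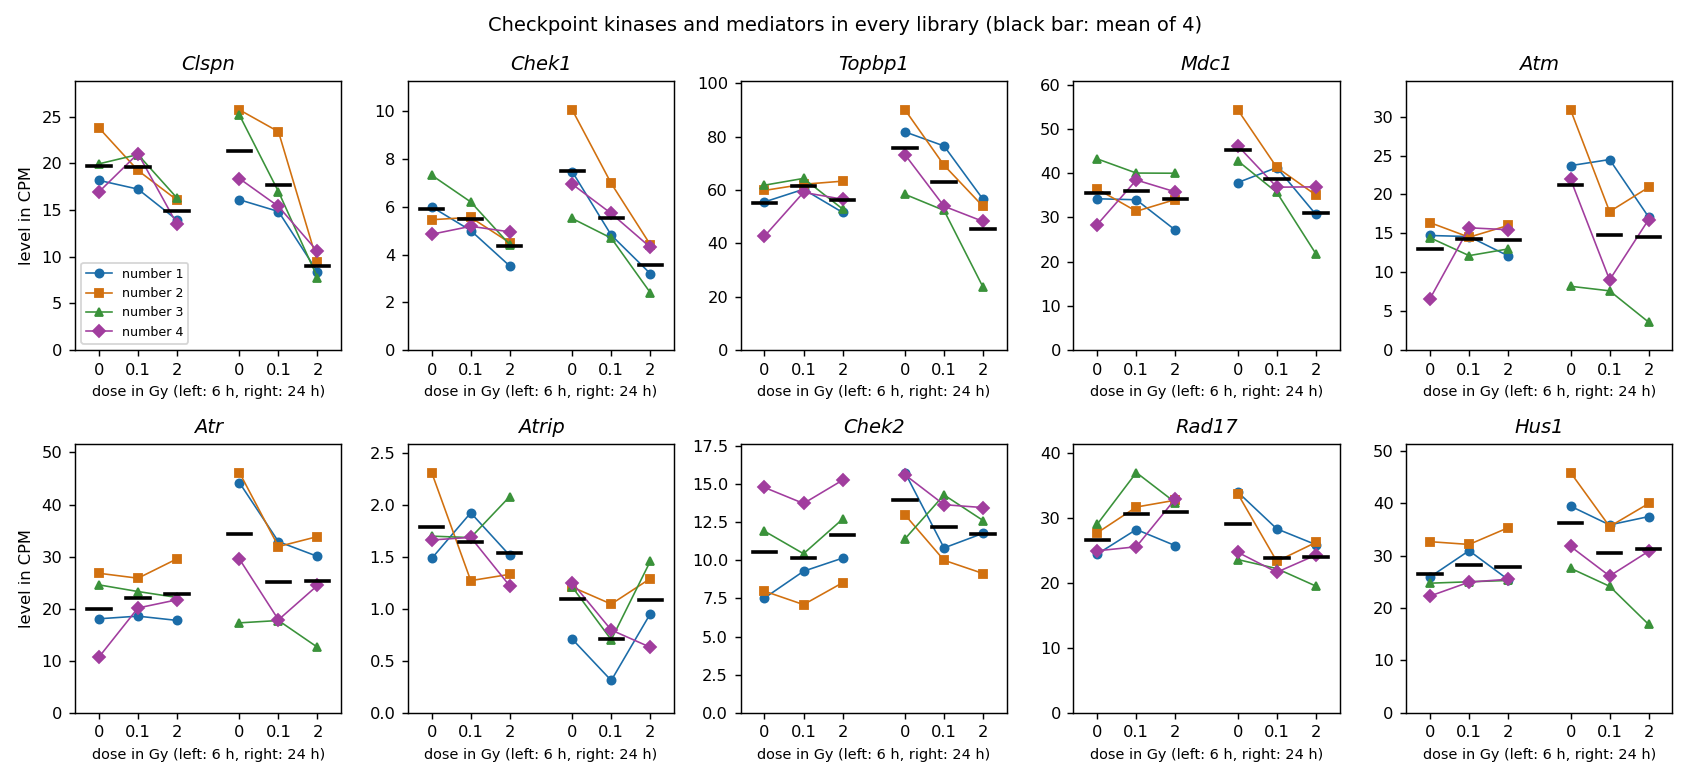
Level of each gene in CPM (y axis, from 0, with its own scale per gene) by dose in Gy (x axis), with the 6 h groups on the left and the 24 h groups on the right. Each point is 1 library, lines join libraries of the same number within a time, and black bars are means of 4 libraries; *Clspn* falls from a mean of 21.4 CPM at 0 Gy to 9.03 CPM at 2 Gy at 24 h.

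At 24 h after 2 Gy, the mediators *Clspn*, *Topbp1* and *Mdc1* and the kinase *Chek1* were lower than in mock-irradiated cells without overlap of the libraries. In the unpaired edgeR fit, which had been set as the main test, 0 of the 10 genes were called at an adjusted p under 0.05, where the percentage of all 15892 genes called was 0. Without adjustment, 4 of the 10 (*Clspn*, *Chek1*, *Mdc1* and *Topbp1*) had p under 0.05 and a lower level in that fit, as had 2.17% of all genes. DESeq2, also unpaired, called *Clspn* alone among the 10, beside 0.456% of genes called as lower. In the paired edgeR fit, with the number as a block, 6 of the 10 genes were called, all lower after 2 Gy, against 6.69% of all genes called as lower. DESeq2 with the same block called 6 of the 10, against 9.2%. Since the libraries differed in the counting of genes by GC content, the paired fit was repeated with a correction for GC content and length, and here 4 of the 10 were called as lower, against 1.87% of all genes. The median log2 fold change of the 10 genes was -0.48 in the unpaired, -0.49 in the paired and -0.23 in the corrected fit, and that of all genes lay between 0.00448 and 0.0124. In bulk RNA, fewer cells of a type and less RNA per cell cannot be told apart.

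*Clspn*, the adaptor between ATR and CHK1, had 16.1, 25.8, 25.2 and 18.4 CPM in the mock-irradiated libraries 1 to 4 at 24 h, and 8.38, 9.41, 7.77 and 10.6 CPM after 2 Gy. Every library after 2 Gy lay below every mock-irradiated library, and library 3 showed the largest drop. The log2 fold change (log2FC) of 2 Gy against 0 Gy was -1.24 ± 0.214 (SE) with an adjusted p of 0.202 in the unpaired edgeR fit. The paired fit gave -1.22 ± 0.158 (adjusted p = 0.00507) and the GC correction -1.07 ± 0.136 (adjusted p = 0.00647), a level of 0.475 times the control. DESeq2 gave an adjusted p of 0.000249 without the pairing.

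*Chek1*, the kinase that claspin presents to ATR, had 7.47, 10.1, 5.51 and 6.95 CPM at 0 Gy and 3.20, 4.41, 2.40 and 4.30 CPM at 2 Gy. The groups did not overlap, and the log2 ratio within pairs lay between -1.20 and -0.68. The log2FC of *Chek1* was -1.06 ± 0.149 (adjusted p = 0.00745) in the paired edgeR fit, -0.82 ± 0.134 (adjusted p = 0.0183) after GC correction, and -1.06 with an adjusted p of 0.643 in the unpaired fit. With 47 to 216 counts per library in these groups it is one of the less precisely measured genes of the pathway.

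*Topbp1*, the activator of ATR, had 81.8, 90.1, 58.4 and 73.3 CPM in mock-irradiated cells and 56.5, 53.9, 23.6 and 48.2 CPM after 2 Gy. The irradiated libraries again lay below all controls, and the library numbered 3 was the lowest in both groups. Its log2FC was -0.79 ± 0.132 (adjusted p = 0.0128) in the paired edgeR fit and -0.54 ± 0.0930 (adjusted p = 0.0215) after GC correction. In the unpaired fit it was -0.73 with an adjusted p of 0.940.

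*Mdc1*, which anchors ATM at breaks, had 37.9, 54.3, 42.8 and 46.2 CPM at 0 Gy and 30.6, 35.0, 21.8 and 36.9 CPM at 2 Gy. There was no overlap, although the highest irradiated library and the lowest control lay close together. The paired edgeR fit gave a log2FC of -0.55 ± 0.123 (adjusted p = 0.0263) and the GC correction gave -0.52 ± 0.0935 (adjusted p = 0.0256), while the unpaired fit gave -0.54 with an adjusted p of 0.940. Absence of overlap in the direction of lower levels was thus seen for 4 of the 10 genes and for 2.01% of all genes. In exact two-sided permutation tests of the mean log2 CPM, made for the 10 genes in 6 comparisons of groups (60 tests), such genes had p = 0.0286, the smallest value that 4 libraries against 4 allow, and 8 of the 60 tests reached it.

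For the apical kinases the groups overlapped. *Atm* had 23.7, 30.9, 8.19 and 21.9 CPM at 0 Gy and 17.1, 20.9, 3.58 and 16.8 CPM at 2 Gy. All 4 pairs were lower after 2 Gy, but the groups overlapped widely, and the library numbered 3 was far below the others in both. The log2FC of *Atm* was -0.61 ± 0.137 (adjusted p = 0.0266) in the paired edgeR fit and -0.25 ± 0.104 (adjusted p = 0.215) after GC correction.

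For *Atr*, the levels were 44.2, 46.1, 17.3 and 29.5 CPM in mock-irradiated cells and 30.03, 33.8, 12.6 and 24.5 CPM after 2 Gy, again lower in all 4 pairs with overlapping groups. Its log2FC of -0.43 ± 0.0912 (adjusted p = 0.0234) in the paired edgeR fit turned to 0.13 ± 0.0930 (adjusted p = 0.486) after GC correction. No direction can thus be given for *Atr*. *Chek2*, the kinase downstream of ATM, had 11.4 to 15.8 CPM at 0 Gy and 9.14 to 13.5 CPM at 2 Gy, and its log2FC of -0.24 ± 0.129 in the paired edgeR fit did not pass the test (adjusted p = 0.228).

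**Figure D2:**
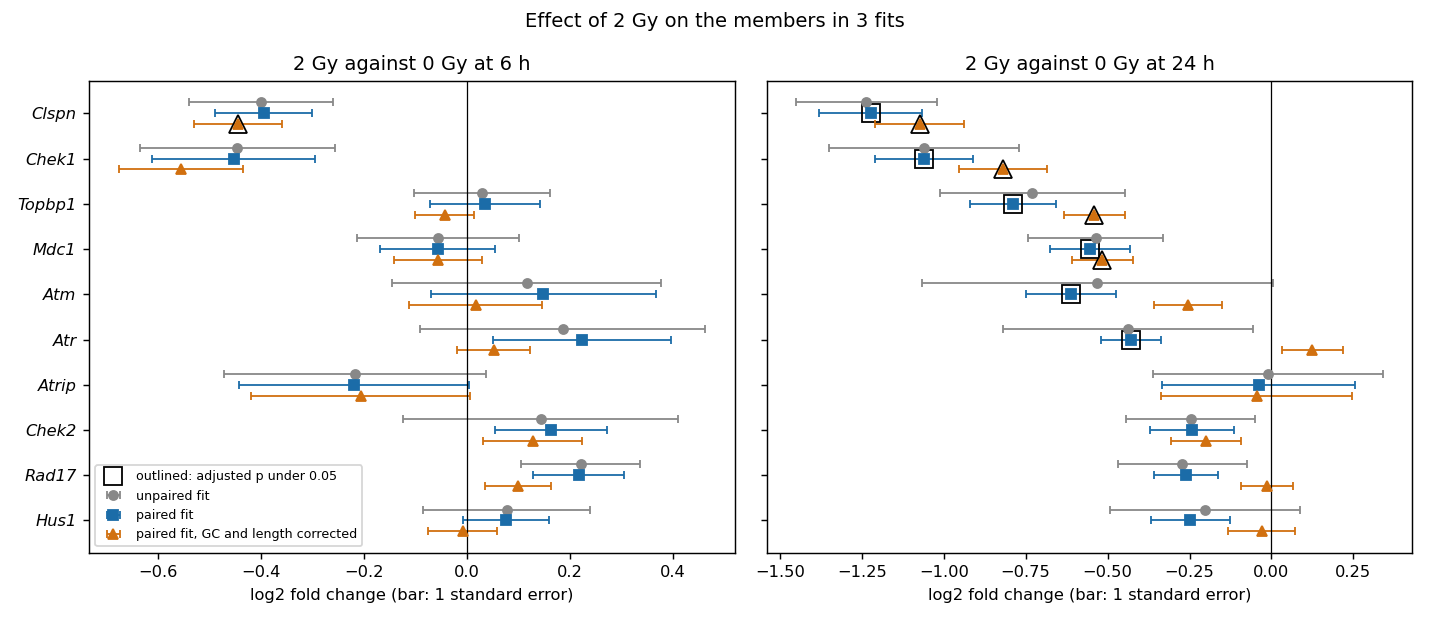
Log2 fold change of 2 Gy against 0 Gy (x axis) for each gene at 6 h (left) and 24 h (right), in the unpaired fit (grey circles), the paired fit (blue squares) and the paired fit with GC and length correction (orange triangles). Bars are 1 standard error and black outlines mark an adjusted p under 0.05; at 24 h *Clspn*, *Chek1*, *Topbp1* and *Mdc1* are outlined in both paired fits, *Atm* and *Atr* in the first only.

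The clamp genes and the ATR partner were not called in any of these fits at 24 h. *Rad17*, the clamp loader, had 23.6 to 34.0 CPM at 0 Gy and 19.5 to 26.2 CPM at 2 Gy, and its log2FC went from -0.26 ± 0.0982 (adjusted p = 0.105) in the paired edgeR fit to -0.014 after GC correction. *Hus1*, a subunit of the clamp, had 27.6 to 45.9 CPM and 16.9 to 40.0 CPM, with -0.25 ± 0.122 (adjusted p = 0.195) and -0.030 in the same edgeR fits. Both were lower in all 4 pairs, as were 8 of the 10 genes and 21.9% of all genes. *Atrip* lay between 0.709 and 1.25 CPM in mock-irradiated cells and between 0.631 and 1.46 CPM after 2 Gy. Its paired log2FC was -0.039 ± 0.294, so that at 14 to 33 counts per library in these groups a moderate change in either direction was not detectable.

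**Figure D3:**
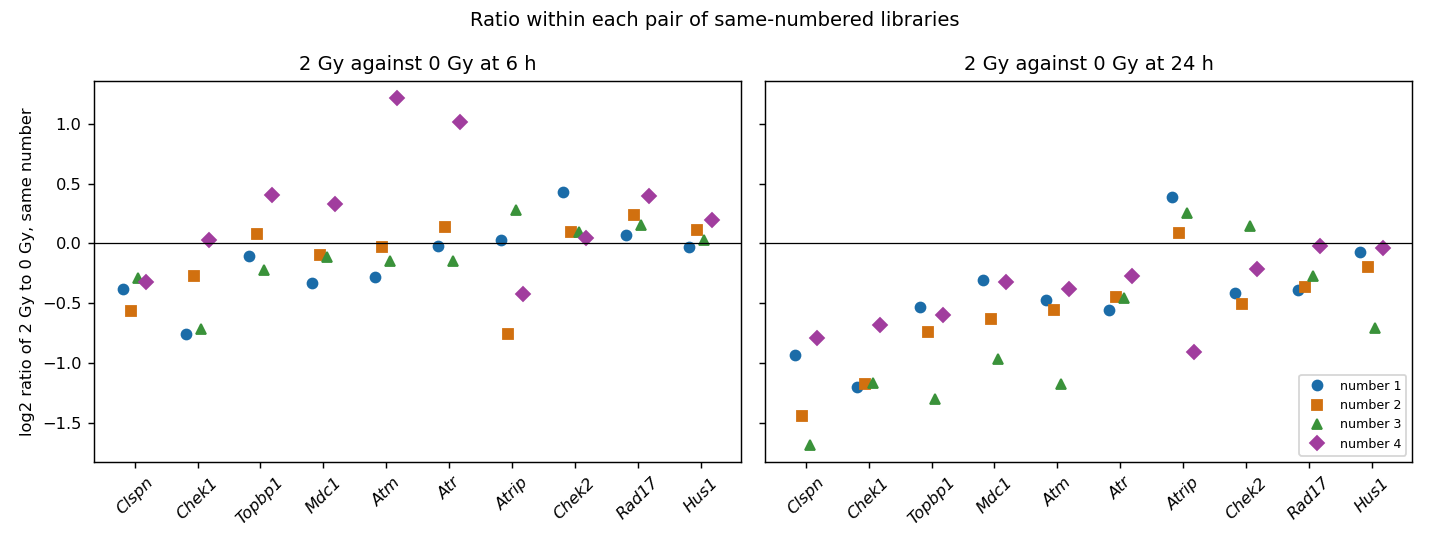
Log2 ratio of 2 Gy to 0 Gy (y axis) within each pair of libraries of the same number, by gene (x axis), at 6 h (left) and 24 h (right). The line marks no difference; at 24 h all 4 pairs of 8 genes lie below it, with *Clspn* between -1.69 and -0.79, and at 6 h only *Clspn* has all pairs below it.

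The calls at 24 h depended on which pair was left out. Without the pair numbered 1 the paired edgeR fit called 3 of the 10 genes as lower, against 0.68% of all genes, and without number 2 it called 0, against 0.376%. Without number 3 it called 8, with *Chek2* and *Rad17* among them, where 16.4% of all genes were called as lower. Without number 4 it called 2, against 0.875%. The estimates moved less, with *Clspn* between -1.36 and -1.06, *Chek1* between -1.19 and -1.01, *Topbp1* between -0.88 and -0.62 and *Mdc1* between -0.64 and -0.41. Number 2 is the pair with few microglial transcripts. Without it, the log2FC of *Clspn* was -1.15 (adjusted p = 0.0619) and that of *Chek1* -1.02 (adjusted p = 0.0847) in the paired edgeR fit, close to their values with all pairs. Number 3 is the pair lowest in genes poor in GC. The part of microglial cells in the results was not tested.

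The log2 fold change of 2 Gy against 0 Gy at 24 h followed GC content over the whole transcriptome. Across 15855 genes the paired log2 fold change followed GC content with r = 0.561 (genes are not independent replicates), and its median was -0.26 in the part of genes lowest in GC and 0.26 in the highest part. In the single libraries, the level of low-GC against high-GC genes had a median of 0.53 at 0 Gy, -0.14 at 0.1 Gy and 0.00993 at 2 Gy at 24 h, with overlapping ranges and no order by dose, and 2 Gy against 0.1 Gy followed GC content with r = 0.103 only. After the correction the same correlation was 0.00943. The part of the GC trend in the result for *Atm* and *Atr*, which were called without the correction only, was not tested further.

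**Figure D4:**
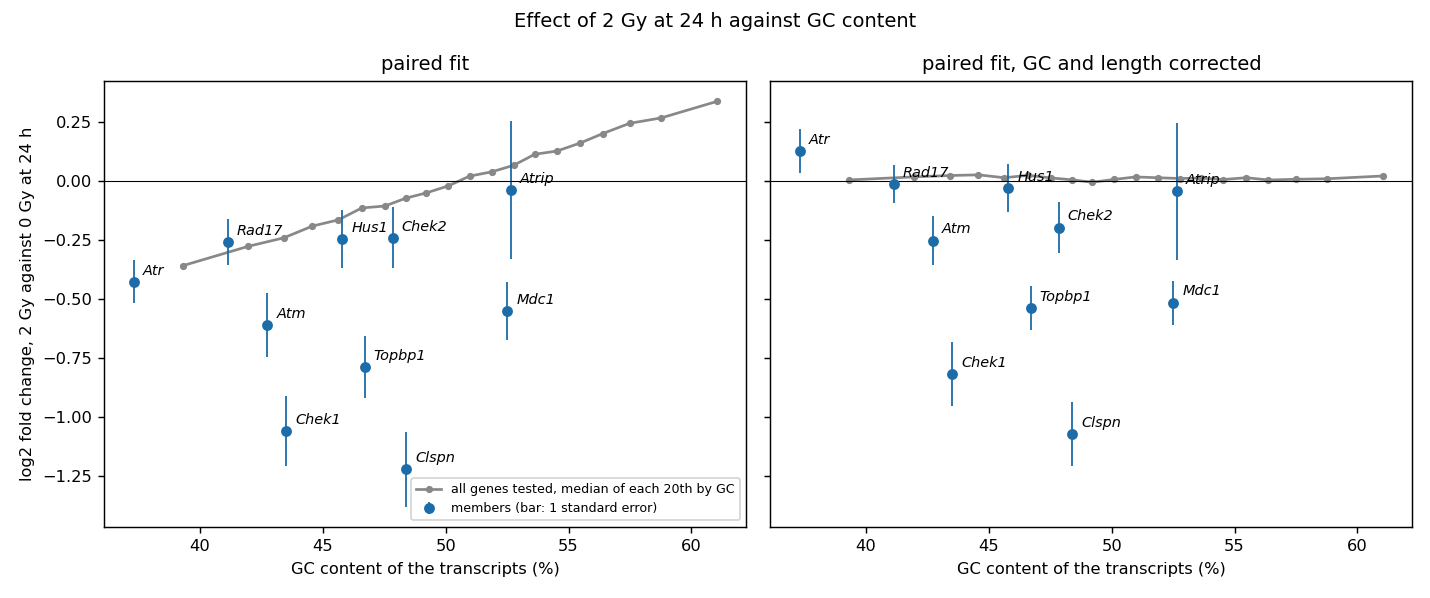
Log2 fold change of 2 Gy against 0 Gy at 24 h (y axis) against the GC content of the transcripts in percent (x axis), in the paired fit (left) and after GC and length correction (right). Blue points are the 10 genes with bars of 1 standard error, and the grey line joins medians of all genes in bins of equal size by GC; *Atr* (37.3% GC) sits near the line before correction at -0.43 and above it at 0.13 after.

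At 6 h after 2 Gy, the unpaired and the paired edgeR fit called 0 of the 10 genes, where the percentage of all 15994 genes called was 0 in both. Unadjusted p-values under 0.05 were found for 2 of the 10 in the unpaired fit (*Clspn* and *Chek1*), against 1.34% of all genes, and for 3 in the paired fit, against 6.88%, and unpaired DESeq2 called 0 of the 10 and 0.00333% of all genes as lower. *Clspn* had 18.2, 23.8, 19.96 and 17.0 CPM at 0 Gy and 13.9, 16.1, 16.3 and 13.5 CPM at 2 Gy. This was the only gene of the 10 whose groups did not overlap at 6 h, which held for 0.707% of all genes in this direction. Its log2FC was -0.39 ± 0.0950 (adjusted p = 0.355) in the paired edgeR fit and -0.44 ± 0.0853 (adjusted p = 0.0415) after GC correction, where 0.207% of all genes were called as lower. For *Chek1*, with 4.85 to 7.32 CPM at 0 Gy and 3.52 to 4.95 CPM at 2 Gy, the GC-corrected paired edgeR fit gave -0.56 ± 0.121 (adjusted p = 0.0737). The other 8 genes had log2FC values from -0.22 (*Atrip*) to 0.22 (*Atr*) in the paired fit. *Rad17* and *Chek2* were higher in all 4 pairs, with 0.22 ± 0.0877 (adjusted p = 0.681) and 0.16 ± 0.108 (adjusted p = 0.683) in the paired edgeR fit.

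The effect of 2 Gy at 24 h was then compared with that at 6 h in 1 fit, as an interaction. The unpaired edgeR fit called 0 of the 10 genes and 0% of 16866 genes (an unadjusted p under 0.05 was found for 3 of the 10 and for 4.9% of all genes), and unpaired DESeq2 called 0 of the 10 and 0.0478% of all genes as lower. The paired edgeR fit called 3 genes, against 3.23% of all genes called in the same direction, and DESeq2 with the block called 5, against 10%. The change from 6 h to 24 h in the effect in this edgeR fit was -0.82 ± 0.193 (adjusted p = 0.0402) for *Clspn*, -0.82 ± 0.184 (adjusted p = 0.0388) for *Topbp1* and -0.47 ± 0.132 (adjusted p = 0.0498) for *Rad17*. After GC correction only *Topbp1* was called, with -0.50 ± 0.112 (adjusted p = 0.0465, paired edgeR), against 0.963% of all genes. In the same edgeR fit *Clspn* had -0.63 ± 0.167 (adjusted p = 0.0629) and *Rad17* -0.12 ± 0.100 (adjusted p = 0.524). Without number 1 or 2 the paired fit called 0 of the 10 and 0% of all genes as lower, without number 4 it called 0 and 0.407%, and without number 3 it called 5, where 11.3% of all genes were called as lower. For *Topbp1* the paired log2FC was 0.036 ± 0.107 at 6 h and -0.79 ± 0.132 at 24 h, and the difference between the times passed the test in both paired fits.

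After 0.1 Gy, 0 of the 10 genes were called at 6 h by the unpaired or the paired edgeR fit, after GC correction, or by DESeq2 with or without the block, where the percentage of all genes called as lower was 0 as well. Unadjusted p-values under 0.05 were found for 0 of the 10 and 0.15% of all genes in the unpaired edgeR fit, and for 1 of the 10 and 3.97% of all genes in the paired one. At 24 h, the unpaired edgeR fit called 0 of the 10 and 0% of 16183 genes, unpaired DESeq2 called 0 of both, and 0 of the 10 had an unadjusted p under 0.05 in the unpaired edgeR fit, against 1.49% of all genes, while in the paired one 9 of the 10 and 28.1% of all genes did. The log2FC values of the 10 were all negative, from -0.61 (*Atrip*) to -0.21 (*Chek2*). The paired edgeR fit called *Atr* alone, with -0.42 ± 0.119 (adjusted p = 0.0474), against 4.5% of all genes called as lower, and DESeq2 with the block called *Atm* and *Atr*, against 8.38%. *Atr* had 32.9, 31.9, 17.7 and 17.9 CPM after 0.1 Gy at 24 h, and in the pair numbered 3 it was not lower than the control. After GC correction its log2FC was 0.12 ± 0.0904 (adjusted p = 0.539, paired edgeR), and 0 of the 10 genes were called, against 0.855% of all genes called as lower. The paired edgeR fit called 6 of the 10 without number 3, where 11.8% of all genes were called as lower, and 1 without number 1, against 4.3%. It called 0 without number 2 or number 4, against 0.118% and 0.0925%.

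The 2 doses were compared directly at 24 h. *Clspn* had 14.9, 23.4, 17.0 and 15.4 CPM after 0.1 Gy, all above the 7.77 to 10.6 CPM after 2 Gy. The log2FC of 2 Gy against 0.1 Gy was -0.94 ± 0.147 (adjusted p = 0.0816) for *Clspn* in the paired edgeR fit, -0.93 ± 0.122 (adjusted p = 0.0142) after GC correction, and the adjusted p in unpaired DESeq2 was 0.01185. *Chek1* also did not overlap between the doses, with 4.69 to 6.98 CPM after 0.1 Gy and 2.40 to 4.41 CPM after 2 Gy, and had -0.60 ± 0.124 (adjusted p = 0.0845, paired edgeR) after GC correction. These were 2 of the 10 genes, against 1.06% of all genes that were lower without overlap. *Topbp1* was called after GC correction with -0.50 ± 0.0861 (adjusted p = 0.0376, paired edgeR), although its groups overlapped. The unpaired and the paired edgeR fit called 0 of the 10 genes and 0% of 16002 genes (2 of the 10 and 1.34% of all genes had an unadjusted p under 0.05 in the first, 4 of the 10 and 4.94% in the second), and the corrected fit called 2 of the 10, against 0.676% of all genes called as lower. DESeq2 called *Clspn* alone without the block, against 0.22%, and with it, against 0.649%. The comparisons of both doses with 0 Gy share the same control libraries, so their values are not independent of each other.

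Time alone was examined in mock-irradiated cells, where the numbers were not taken as pairs, since libraries numbered 3 did not deviate together (r = 0.0887) although the others did (0.378 to 0.801). The unpaired edgeR fit called 0 of the 10 genes, while it called 6.7% of 15887 genes. With 1 library left out it called 0 to 1 of the 10 and 170 to 2999 genes. Of the 10, *Topbp1* and *Atrip* (2 genes) had an unadjusted p under 0.05, against 24.7% of all genes, and unpaired DESeq2 called 0, against 11.1% of all genes called in either direction. *Atrip* had 1.49, 2.32, 1.70 and 1.67 CPM at 6 h and 0.709, 1.21, 1.21 and 1.25 CPM at 24 h, with a log2FC of 24 h against 6 h of -0.72 ± 0.291 (adjusted p = 0.163, unpaired edgeR). It was the only one of the 10 with a lower estimate at 24 h and with groups that did not overlap, which 7.44% of all genes had in this direction. *Atr* (0.76, adjusted p = 0.227) and *Atm* (0.69, adjusted p = 0.330) had the highest estimates in the unpaired edgeR fit. In both, the mock-irradiated library numbered 3 at 24 h lay within the range at 6 h, with 17.3 CPM for *Atr* and 8.19 CPM for *Atm*. The unpaired log2 fold change of 24 h against 6 h also followed GC content, with r = -0.317 over 15850 genes. Its median was 0.234 in the part of genes lowest in GC and -0.248 in the highest part. The part of this trend in the estimates of *Atr* and *Atm*, both poor in GC, was not tested.

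Other genes of the checkpoint were counted in lists arranged by role and compared at 24 h after 2 Gy in the paired edgeR fit, where 6.69% of all genes were called as lower, and after GC correction, where 1.87% were. The unpaired edgeR fit called none of them. Both subunits of the fork protection complex, which works with claspin, fell, *Timeless* with a log2FC of -0.59 (8.76 ± 2.16 CPM at 0 Gy, 5.82 ± 1.62 CPM at 2 Gy, adjusted p = 0.0209) and *Tipin* with -0.52 (21.5 ± 3.98 and 14.9 ± 2.35 CPM, adjusted p = 0.0351). Both were also called after GC correction. Of 12 tested genes of damage sensing and clamp loading, 4 were called as lower in the paired edgeR fit. These were *Rfc4* (-0.50) and *Rfc5* (-0.50), subunits of the clamp loader, *Rpa2* (-0.41), a subunit of RPA, and *Etaa1* (-0.62), another activator of ATR. Only *Rpa2* was called after the correction. Of the MRN complex, which senses breaks and recruits ATM, *Nbn* (-0.46) and *Rad50* (-0.39) were called as lower in the paired edgeR fit. None of the 3 genes was called after correction.

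Among 5 chromatin mediators, *Brca1* fell by 1.16 on the log2 scale (20.02 ± 7.22 CPM at 0 Gy, 8.70 ± 1.86 CPM at 2 Gy, adjusted p = 0.00289 in the paired edgeR fit). After GC correction *Brca1* (-0.92) and *H2afx* (-0.62), which codes for the histone bound by MDC1, were called, against 1.87% of all genes called as lower. Before the correction *H2afx* had -0.20 (adjusted p = 0.179, paired edgeR), with overlapping levels of 33.5 ± 9.28 CPM at 0 Gy and 29.3 ± 10.4 CPM at 2 Gy. None of the 4 genes of kinase maturation and checkpoint phosphatases, such as *Telo2* (0.27) and *Ppm1d* (-0.041), was called in either fit. Of 6 effectors only *Cdc25c*, the phosphatase that drives entry into mitosis, was called as lower in the paired edgeR fit (-0.79, adjusted p = 0.0287), against 6.69% of all genes. None was called after correction. *Cdc25a* (12.48 to 13.55 CPM at 0 Gy, 9.09 to 11.61 CPM at 2 Gy) and *Cdc25b* (8.57 to 10.58 and 6.87 to 8.31 CPM) were not called, but their groups did not overlap. Those of the other effectors not called overlapped. *Trp53* had a log2FC of 0.061 and was not called. Medians of these 6 lists ran from -0.56 (fork protection) to -0.00248 (kinase maturation), beside 0.00448 for all genes.

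Most genes of a proliferation list were also lower at 24 h after 2 Gy. Of 18 such genes, 17 were called as lower after 2 Gy in the paired edgeR fit (6.69% of all genes) and 16 after GC correction (1.87% of all genes). The medians were -0.76 in both, *Mki67* was lowest at -1.61 and *E2f1* (-0.054) was the gene not called in the first. Their summed level was 834.4 to 981.1 CPM at 0 Gy, 713.9 to 770.1 CPM at 0.1 Gy and 430.3 to 515.1 CPM at 2 Gy. At 6 h the sum was 800.6 to 1042 CPM at 0 Gy and 758.4 to 905.9 CPM at 2 Gy. The part of a lower share of dividing cells in the lower levels of *Clspn*, *Chek1*, *Topbp1* and *Mdc1* was not tested. Of 14 targets of p53, the factor that ATM and CHK2 activate, 6 were called as higher at 24 h in the paired edgeR fit, as were 6.53% of all genes. Among the 6 were *Cdkn1a* (0.57, adjusted p = 0.00929), *Bax* (0.82) and *Bbc3* (0.98). After GC correction 5 were called as higher, against 1.51% of all genes, and these 3 had 0.42, 0.48 and 0.57. At 6 h the paired edgeR fit called none of the 14, and after GC correction 8 were called as higher, against 0.708% of all genes. Among the 8 were *Trp53inp1* (0.83) and *Cdkn1a* (0.72).

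The genes most like each of the 10 were sought among 17352 genes by Pearson's r of log2 CPM over the 24 libraries, which share numbers, depth and GC trend. *Clspn* was most like *Pclaf* (0.93), *Mcm10* (0.92) and *Fignl1* (0.91). *Chek1* was most like *Ccne2* (0.88), *Esco2* (0.87) and *Brca1* (0.86), and *Mdc1* was most like *Chek1* itself (0.82), before *Smc3* (0.82) and *Ncapd3* (0.81). *Topbp1* had *Rad21* (0.95), *Atad5* (0.95) and *Lin54* (0.94) as its nearest genes. *Atm* followed *Jmjd1c* (0.98), *Usp45* (0.97) and *Shprh* (0.97), and *Atr* followed *Ralgapa1* (0.98), *Fam135a* (0.96) and *Polr2b* (0.96), with GC contents of 40.6% to 46.1%. The genes named for *Chek1* had GC contents in the same range. For *Rad17* the nearest gene was *Dnajc10* (0.94), for *Hus1* it was *Lrrk2* (0.97), for *Chek2* it was *Rmnd1* (0.87) and for *Atrip* it was *Gm13054* (0.87).

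Within the group, the variation that remained after the mean of each number and time was removed was shared most between *Mdc1* and *Topbp1* (r = 0.932 over 24 libraries), *Atm* and *Atr* (0.918), and *Chek1* and *Clspn* (0.885). *Clspn* and *Atr* shared less (0.360), as did *Clspn* and *Atm* (0.460). The values of *Atrip* with the others ran from -0.233 to 0.182, and those of *Chek2* from 0.159 to 0.438. These values describe libraries that differ in dose and GC trend and were not tested.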

How the data were processed

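Primary murine astrocytes were sequenced as 24 libraries of polyadenylated mRNA with paired reads in the same run. The authors deposited raw counts of reads per gene for each library, without normalization or pooling. The aligner, the counting tool and the use of strand are not given in the sources used here. Of the 49315 genes, 49056 identifiers were found in GENCODE M21 (GRCm38), 44858 of them with the same start and end. Groups and numbers came from the labels, which do not tie a number to a mouse, and the study calls the 4 libraries of a group biological repeats.

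Counts were fitted in R 4.3.3 with edgeR 4.0.16 (TMM normalization, filterByExpr, quasi-likelihood test) on the libraries of the groups compared, with Benjamini-Hochberg adjustment over all genes tested and a gene called at an adjusted p under 0.05. The comparison without the numbers was set as the primary one, as the methods name no pairing. No pair of libraries of one group agreed within sampling noise (lowest chi-square per degree of freedom 28.33). The correlation of the deviations of libraries with the same number was 0.514 to 0.907 within a time, so the number was used as a block there, whereas between the times it was 0.0887 for number 3 and 0.378 to 0.801 for the others, so no block was used for 24 h against 6 h. GC content and length (splines with 5 degrees of freedom) came from GENCODE M21 transcripts for 48970 genes. Levels are TMM-normalized CPM, with a prior count of 2 on the log2 scale. DESeq2 1.42.0, its size factors, library size alone, no filter on low counts, a minimum log2 fold change of 1, all 24 libraries in one fit, and left-out libraries were the alternatives. DESeq2 with the block was chosen after the data were seen. The scripts were tested on data simulated from the paired fit, where 200 genes were given a log2 fold change of 1 in either direction. For 2 Gy against 0 Gy at 24 h the unpaired edgeR fit called 0% of these and the paired fit 88.5%. For the interaction the values were 0% and 79.5%. An absence of calls in the unpaired fit thus does not show an absence of changes of this size. Promoter sequences came from RefSeq (GRCm38.p6), where all 10 genes matched.

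The 10 genes and the lists were chosen with earlier results of these data known. The genes named are the 10, those of the lists that passed in a comparison of 2 Gy with 0 Gy or stood highest or lowest in their list, and the 3 likest genes. *H2afx*, *Cdc25a*, *Cdc25b* and the cell type markers named fall outside this rule and were chosen after their values were seen.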

Additional observations from a re-analysis of the deposited data

Results flagged for a closer look

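Over the 60 sets of 4 libraries (10 genes in 6 groups), a test for a single outlying library singled out 3. This is no more than the rate of about 1 in 20 that chance gives. *Atrip* had 0.709 CPM in the mock-irradiated library numbered 1 at 24 h, below 1.21 to 1.25 CPM in the others. *Rad17* had 25.7 CPM in the library numbered 1 at 6 h after 2 Gy, below 32.4 to 32.9 CPM in the others. *Hus1* had 35.3 CPM in the library numbered 2 at 6 h after 2 Gy, above 25.3 to 25.5 CPM in the others.

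The effect of 2 Gy differed between 24 h and 6 h in the paired edgeR fit for *Clspn* (-0.82 ± 0.193 (SE) on the log2 scale, adjusted p = 0.0402), *Topbp1* (-0.82 ± 0.184, adjusted p = 0.0388) and *Rad17* (-0.47 ± 0.132, adjusted p = 0.0498). In the unpaired edgeR fit the difference passed for none of the 10 genes, and with the GC correction it passed for *Topbp1* alone.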

How the results depend on the processing

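The 4 libraries of a group and 10 of 49315 genes limit the precision, and *Atrip* (6 to 67 counts) and *Chek1* (47 to 216 counts) were least deeply counted. Of the log2 fold changes of the 10 genes with every library in the fit, 499 kept their direction and their side of the threshold, 38 newly passed it and 23 turned sign. With a library or number left out, 813, 36 and 71 did so. All 60 mean levels moved by less than 1 SD with library size alone. The paired values that changed calls within a time stand in the report. Between 24 h and 6 h at 0 Gy the samples share only a number, and the block result is given here alone. The causes of the changes listed were not tested.

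For 2 Gy against 0 Gy at 6 h, where the unpaired edgeR fit called 0 genes, DESeq2 called 1, the replicate block with GC and length correction called 146 and the replicate block in DESeq2 called 59. Among the 10 genes the calls numbered 1 with the replicate block with GC and length correction. With a library left out the unpaired fit called 0 genes and 0 of the 10, and with a number left out the replicate block called 0 to 129 and 0. A turn of sign was seen for *Topbp1* (-0.0432) and *Hus1* (-0.00822) with the replicate block with GC and length correction. Over left-out libraries the range crossed 0 for *Atm* -0.101 to 0.237 (unpaired) and -0.149 to 0.301 (block), *Atr* -0.0214 to 0.351 (unpaired) and -0.0026 to 0.35 (block), *Chek2* -0.0188 to 0.353 (unpaired), *Mdc1* -0.147 to 0.0507 (unpaired) and -0.175 to 0.0307 (block), *Topbp1* -0.073 to 0.088 (unpaired) and -0.0774 to 0.119 (block) and *Hus1* -0.0538 to 0.19 (unpaired).

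For 2 Gy against 0 Gy at 24 h, where the unpaired edgeR fit called 0 genes, DESeq2 called 93, the replicate block called 2100, the replicate block with a minimum log2 fold change of 1 called 129, the replicate block with GC and length correction called 536, all 24 libraries in a fit called 108 and the replicate block in DESeq2 called 2320. Among the 10 genes the calls numbered 1 with DESeq2, 6 with the replicate block, 2 with the replicate block with a minimum log2 fold change of 1, 4 with the replicate block with GC and length correction, 2 with all 24 libraries in a fit and 6 with the replicate block in DESeq2. With a library left out the unpaired fit called 0 genes and 0 of the 10, and with a number left out the replicate block called 69 to 5291 and 0 to 8. In the block, 143 genes were called without number 1, 69 genes were called without number 2, 5291 genes were called without number 3 and 245 genes were called without number 4. The estimate turned sign for *Atr* (0.125) with the replicate block with GC and length correction and *Atrip* (0.0112) with library size alone. The range over left-out libraries crossed 0 for *Atrip* -0.182 to 0.19 (unpaired) and -0.165 to 0.26 (block) and *Hus1* -0.345 to 0.0117 (unpaired).

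For 0.1 Gy against 0 Gy at 6 h, with a library left out the unpaired fit called 0 genes and 0 of the 10, and with a number left out the replicate block called 0 to 13 and 0. A turn of sign was seen for *Clspn* (0.00154) with DESeq2, *Clspn* (0.00878) with no filter and *Clspn* (0.00918) with the replicate block in DESeq2. Over left-out libraries the range crossed 0 for *Atm* -0.0929 to 0.258 (unpaired) and -0.144 to 0.316 (block), *Atr* -0.0777 to 0.307 (unpaired) and -0.0323 to 0.282 (block), *Atrip* -0.211 to 0.0268 (unpaired) and -0.283 to 0.133 (block), *Chek1* -0.191 to 0.0136 (unpaired), *Chek2* -0.236 to 0.149 (unpaired) and -0.153 to 0.00797 (block), *Mdc1* -0.0785 to 0.126 (unpaired) and -0.112 to 0.109 (block) and *Clspn* -0.075 to 0.098 (unpaired) and -0.107 to 0.108 (block, with 0.0239 between).

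For 0.1 Gy against 0 Gy at 24 h, where the unpaired edgeR fit called 0 genes, the replicate block called 1107, the replicate block with a minimum log2 fold change of 1 called 34, the replicate block with GC and length correction called 355 and the replicate block in DESeq2 called 1766. Among the 10 genes the calls numbered 1 with the replicate block and 2 with the replicate block in DESeq2. With a library left out the unpaired fit called 0 genes and 0 of the 10, and with a number left out the replicate block called 16 to 3728 and 0 to 6. In the block, 1176 genes were called without number 1, 21 genes were called without number 2, 3728 genes were called without number 3 and 16 genes were called without number 4. The estimate turned sign for *Atr* (0.119) with the replicate block with GC and length correction.

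For 2 Gy against 0.1 Gy at 24 h, where the unpaired edgeR fit called 0 genes, DESeq2 called 39, the replicate block with GC and length correction called 117, all 24 libraries in a fit called 15 and the replicate block in DESeq2 called 109. Among the 10 genes the calls numbered 1 with DESeq2, 2 with the replicate block with GC and length correction, 1 with all 24 libraries in a fit and 1 with the replicate block in DESeq2. With a library left out the unpaired fit called 0 genes and 0 of the 10, and with a number left out the replicate block called 0 to 161 and 0 to 1. In the block, 161 genes were called without number 3 and 40 genes were called without number 4. A turn of sign was seen for *Atm* (-0.000645) with DESeq2, *Atm* (-0.0389), *Atr* (-0.0291) and *Rad17* (-0.0283) with library size alone, *Atm* (-0.0123) and *Rad17* (-0.00312) with no filter, *Atm* (-0.0519) and *Atr* (-0.00112) with the replicate block, *Atm* (-0.0242) with the replicate block with GC and length correction, *Atm* (-0.00944) with all 24 libraries in a fit and *Atm* (-0.0902) and *Atr* (-0.00907) with the replicate block in DESeq2. Over left-out libraries the range crossed 0 for *Atm* -0.233 to 0.366 (unpaired) and -0.386 to 0.224 (block, with -0.186 between), *Atr* -0.162 to 0.246 (unpaired) and -0.161 to 0.156 (block, with -0.0435 between), *Chek2* -0.116 to 0.0536 (unpaired) and -0.104 to 0.00635 (block), *Rad17* -0.0355 to 0.116 (unpaired) and -0.041 to 0.0932 (block, with -0.0366 between) and *Hus1* -0.0939 to 0.262 (unpaired) and -0.0784 to 0.178 (block, with -0.0234 and -0.0593 between).

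For 24 h against 6 h at 0 Gy, where the unpaired edgeR fit called 1064 genes, DESeq2 called 1969, the replicate block called 2428, the replicate block with GC and length correction called 4216, all 24 libraries in a fit called 2488 and the replicate block in DESeq2 called 3063. Among the 10 genes the calls numbered 1 with the replicate block in DESeq2. With a library left out the unpaired fit called 170 to 2999 genes and 0 to 1 of the 10, and with a number left out the replicate block called 595 to 7192 and 0 to 8. In the block, 595 genes were called without number 1 and 7192 genes were called without number 3. The estimate turned sign for *Clspn* (-0.0485) and *Rad17* (-0.0751) with the replicate block with GC and length correction. The range over left-out libraries crossed 0 for *Rad17* -0.00793 to 0.234 (block).

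For interaction of 2 Gy and time, where the unpaired edgeR fit called 0 genes, DESeq2 called 7, the replicate block called 1143, the replicate block with a minimum log2 fold change of 1 called 203, the replicate block with GC and length correction called 349 and the replicate block in DESeq2 called 2455. Among the 10 genes the calls numbered 3 with the replicate block, 1 with the replicate block with GC and length correction and 5 with the replicate block in DESeq2. With a library left out the unpaired fit called 0 genes and 0 of the 10, and with a number left out the replicate block called 0 to 3951 and 0 to 5. In the block, 3951 genes were called without number 3 and 138 genes were called without number 4. A turn of sign was seen for *Atr* (0.0507) with the replicate block with GC and length correction. Over left-out libraries the range crossed 0 for *Atrip* -0.0754 to 0.427 (block).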
